A study of Mus musculus with 6 samples.

Results

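The kallikreins are secreted serine proteases of epithelia and glands, and the protein made from Spink5 is a secreted inhibitor that holds some of them in check. The set described here holds 9 genes, the 8 kallikreins Klk6, Klk7, Klk8, Klk10, Klk11, Klk12, Klk13 and Klk14 and the inhibitor gene Spink5, taken by symbol from the 55421 genes of the count files. All 9 were found. The set was selected on the difference between genotypes in these same counts, so the differences given below describe the members and support nothing further.

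The material was cornea of mice at an age of 20 weeks. Libraries M1 to M3 came from heterozygous Pax6 mutants and libraries W1 to W3 from wildtype mice. The labels name neither the mutant allele nor the strain, nor do they say how many corneas went into a library. The series' design text calls the 3 libraries of each genotype biological replicates. Gene counts were 16858005 to 21846406 per library, and levels are given in CPM, the count of a gene scaled to library size after composition scaling. Of 7 corneal epithelial marker genes, all had reads, and their summed level was 10950 to 16570 CPM in mutant and 29090 to 38990 CPM in wildtype libraries. Of the 7, 5 were called lower (edgeR, adjusted p under 0.05), beside 4.46% of all tested genes. Clu stood higher in the mutant libraries, at 365 ± 94.8 against 219 ± 41.1 CPM (SD, n = 3 each), and was not called. Aldh3a1 stood lower, at 5395 ± 1085 against 9282 ± 1640 CPM (SD, n = 3 each), and was not called either. Pax6 itself, among the 5, stood at 356 to 454 CPM in the mutant libraries against 746 to 849 CPM in the wildtype libraries. On the second principal component, which held 22.9% of the variance, wildtype libraries W1 and W3 lay at opposite ends, at -39 and 39.9, with the mutant libraries between -15.6 and 5.81.

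Tissue kallikreins are made as inactive precursors, are cleaved to the active form outside the cell, and then cut adhesion proteins, growth factors and receptors. In the epidermis Klk5, Klk7 and Klk14 digest the desmosomal proteins that hold the outermost cells together, and the multidomain Kazal-type inhibitor LEKTI, the product of Spink5, restrains them. Loss of SPINK5 in humans causes Netherton syndrome, in which the outer layer of the skin is shed too early. The cornea has no cornified layer, but its epithelium is stratified and sheds surface cells throughout life.

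The mouse kallikreins lie side by side on the plus strand of chromosome 7. The 26 protein-coding genes of the family span 539 kb of GRCm38, from 43690418 to 44229618. The promoters of 5 kallikreins are shown because 4 of them, Klk13, Klk11, Klk10 and Klk8, belong to the members with reads in these corneas, and Klk7 to those with almost none. Each window runs from 250 bases before to 50 after the annotated start site, on the plus strand, in RefSeq's table for GRCm38.p6. The windows are chr7:43712317-43712616 for Klk13, chr7:43774367-43774666 for the first of 2 Klk11 starts, chr7:43780804-43781103 for Klk10, chr7:43797327-43797626 for Klk8 and chr7:43811044-43811343 for Klk7. Capitals mark CCACCC on either strand, the core of the sites bound by Klf-type zinc finger factors.

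Klk13: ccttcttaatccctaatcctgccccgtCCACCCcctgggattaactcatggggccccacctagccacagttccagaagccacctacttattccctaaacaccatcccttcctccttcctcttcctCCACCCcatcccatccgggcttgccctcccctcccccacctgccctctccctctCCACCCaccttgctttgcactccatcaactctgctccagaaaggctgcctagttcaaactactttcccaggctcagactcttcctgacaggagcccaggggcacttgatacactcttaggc

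Klk11: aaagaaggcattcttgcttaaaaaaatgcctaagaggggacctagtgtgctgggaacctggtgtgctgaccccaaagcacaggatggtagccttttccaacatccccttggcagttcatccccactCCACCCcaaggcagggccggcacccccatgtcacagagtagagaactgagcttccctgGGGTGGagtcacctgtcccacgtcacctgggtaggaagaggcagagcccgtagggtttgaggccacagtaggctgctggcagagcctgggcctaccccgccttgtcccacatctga

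Klk10: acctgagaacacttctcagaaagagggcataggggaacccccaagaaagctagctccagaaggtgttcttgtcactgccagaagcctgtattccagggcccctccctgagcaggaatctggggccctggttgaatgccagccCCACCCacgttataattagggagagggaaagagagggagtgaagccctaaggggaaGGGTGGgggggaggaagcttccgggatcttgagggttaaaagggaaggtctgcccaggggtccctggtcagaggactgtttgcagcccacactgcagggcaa

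Klk8: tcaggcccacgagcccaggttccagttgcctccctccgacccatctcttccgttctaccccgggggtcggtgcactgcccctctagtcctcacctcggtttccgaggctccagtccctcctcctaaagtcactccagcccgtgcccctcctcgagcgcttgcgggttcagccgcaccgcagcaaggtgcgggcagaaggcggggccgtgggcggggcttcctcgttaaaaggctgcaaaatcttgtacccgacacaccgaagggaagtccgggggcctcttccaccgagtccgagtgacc

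Klk7: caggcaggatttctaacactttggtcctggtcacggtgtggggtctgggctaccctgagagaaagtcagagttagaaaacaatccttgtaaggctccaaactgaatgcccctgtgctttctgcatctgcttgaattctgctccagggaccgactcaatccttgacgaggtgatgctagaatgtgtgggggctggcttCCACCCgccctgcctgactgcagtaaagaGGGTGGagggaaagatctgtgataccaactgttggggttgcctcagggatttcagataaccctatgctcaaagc

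Of the 10 windows annotated for the 8 member kallikreins, 6 held CCACCC, against 31.5% of 32851 promoter windows of the same length. The 6 were those of Klk7, Klk10, Klk12, Klk13, Klk14 and the first start of Klk11, so the letters occurred both in genes with reads and in genes with almost none. The Klk8 window held none. In the Klk10 window the matches began -108 and -52 bases from the start site, and in the Klk11 window -124 and -66 bases from it. No member window held TATAAA (13.6% of all windows), the AP-1 letters TGANTCA (7.81%), the grainyhead-type letters ACCGGTT (1.02%) or the paired-domain pattern of Pax6 (0.0396%). The letters CANCTG, which cover only some E-boxes, stood in 7 windows (51.4% of all) and the loose p53-family pattern in 8 (70.2%). Both strands were searched, and matches of different motifs may overlap.

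Only part of the family had reads in these corneas. Klk8, Klk10, Klk11, Klk13 and Spink5 passed the filter on low counts, which asked for 0.556 CPM in 3 libraries. Klk6, Klk7, Klk12 and Klk14 did not. Klk11 and Spink5 reached this level in all 3 wildtype libraries and Klk10 in 2 of them, whereas Klk8 and Klk13 reached it in no wildtype library and passed through the mutant libraries alone. For each of the 5, the lowest mutant library lay above the highest wildtype library. All 5 were called higher and none lower in the quasi-likelihood test of edgeR, at an adjusted p of 0.05 by the method of Benjamini and Hochberg over 15209 genes. Of all tested genes 5.59% were called higher, 4.46% lower and 10.1% in either direction, and in 17.1% the mutant libraries all lay above the wildtype libraries. Their median log2 fold change was 3.1, beside 0.0095 over all tested genes. In RNA from tissue, more cells of a type and more RNA per cell cannot be told apart.

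**Figure D1:**
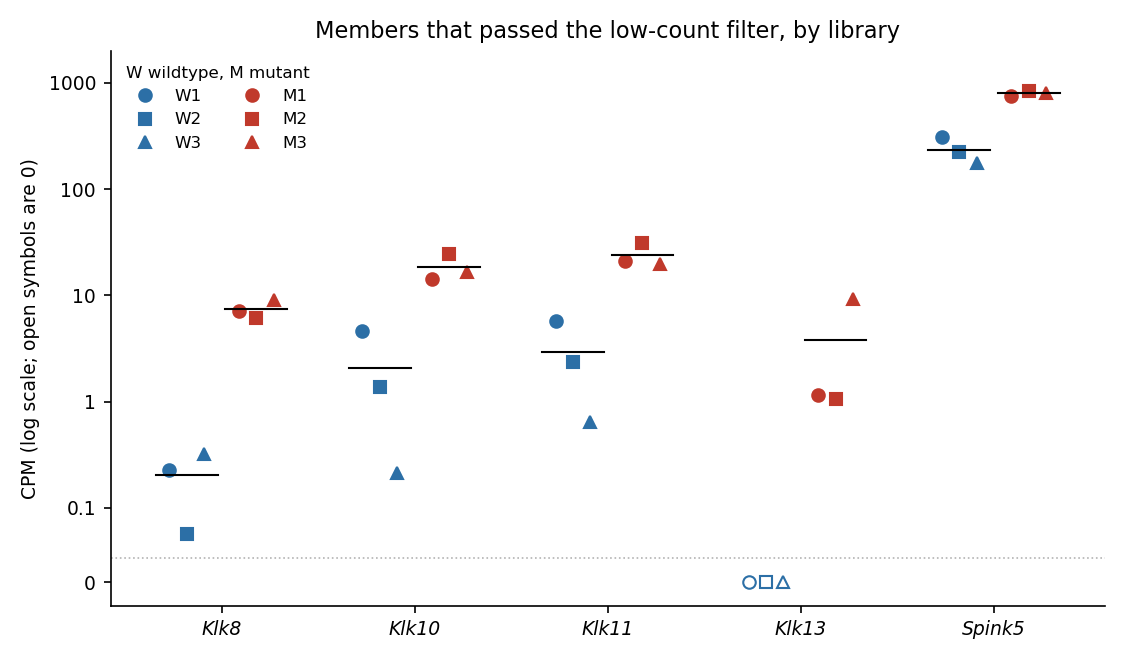
CPM on a log axis of the 5 members that passed the low-count filter, with 1 symbol per library (circles, squares and triangles for libraries 1, 2 and 3 of a genotype, numbers that pair nothing), blue for wildtype and red for mutant, open symbols for 0 and black lines for group means. Every red symbol lies above every blue one within a gene, and the blue symbols of Klk10 and Klk11 spread more widely than the red ones.

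Klk11 and Klk10 were the most abundant kallikreins. Klk11 encodes a trypsin-like secreted protease of epithelia and brain, and Klk10 a kallikrein first described as lost from breast tumour cells. Klk11 (ENSMUSG00000067616, chromosome 7, 43774604 to 43779263) stood at 21.2, 30.9 and 19.8 CPM in M1, M2 and M3 and at 5.67, 2.38 and 0.642 CPM in W1, W2 and W3. The mutant libraries lay close together and the wildtype libraries covered an 8.84-fold range, with no overlap between the groups. The means were 24.0 ± 6.02 CPM in mutant and 2.90 ± 2.56 CPM in wildtype corneas (SD, n = 3 each), and the log2 fold change, mutant minus wildtype, was 3.05 ± 0.63 (SE).

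Klk10 (ENSMUSG00000030693, chromosome 7, 43781035 to 43785410) begins less than 10 kb downstream of Klk11. It stood at 14.1, 24.4 and 16.7 CPM in M1, M2 and M3 and at 4.65, 1.36 and 0.214 CPM in W1, W2 and W3. M2 was highest and W3 lowest for both genes, and the wildtype range of Klk10 was 21.7-fold. The log2 fold change was 3.15 ± 0.81 (SE). Both genes were past the threshold with all libraries but not without M1, M2, M3 or W2. Without W1, their highest wildtype library, the log2 fold changes grew to 3.99 for Klk11 and 4.55 for Klk10. With limma-voom and sample quality weights they were 4.06 and 4.77.

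The pair kept a similar proportion in the mutant libraries. Per kilobase of exon, Klk11 stood at 1.41, 1.19 and 1.11 times Klk10 in M1, M2 and M3. In the wildtype libraries the ratio was 1.14, 1.64 and 2.81, and the last of these rests on 12 Klk11 and 4 Klk10 read pairs in W3.

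Klk8 encodes neuropsin, a trypsin-like protease of hippocampal neurons and stratified epithelia. It lies on chromosome 7 from 43797577 to 43803826 (ENSMUSG00000064023). Read pairs numbered 115, 109 and 200 in M1, M2 and M3 and 4, 1 and 6 in W1, W2 and W3, which corresponds to 7.04, 6.05 and 9.0 CPM against 0.227, 0.0568 and 0.321 CPM. Its mutant libraries were the most even of the kallikreins, within a 1.49-fold range, and all wildtype libraries were near 0. The log2 fold change was 5.14 ± 0.59 (SE) and lay between 4.71 and 5.61 over the 13 alternative analyses, past the threshold in each.

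The counts of Klk8 carry 1 uncertainty of position. The noncoding transcript 2310002F09Rik runs on the opposite strand and overlaps 24.8% of the Klk8 exons and 22.6% of the Klk14 exons. It held 42, 7 and 42 read pairs in M1, M2 and M3 and 0, 2 and 0 in W1, W2 and W3, fewer than Klk8 in each mutant library. The sources used here do not say whether the counting used strand, so reads in the shared stretch cannot be assigned with certainty. No stretch of 50 bases in the transcripts of Klk6, Klk7, Klk10, Klk11, Klk12, Klk13 or Spink5 recurred in the annotated transcripts of another gene, on either strand.

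Klk13 had reads in mutant corneas alone. It encodes a trypsin-like kallikrein and lies on chromosome 7 from 43712567 to 43727534 (ENSMUSG00000054046). Read pairs numbered 19, 19 and 205 in M1, M2 and M3 and 0 in each wildtype library, which gives 1.16, 1.05 and 9.23 CPM in the mutant libraries. M3 thus stood 8.75-fold above M2, a wider spread than that of the other 4 members in mutant corneas. Against a floor of 3 read pairs over the wildtype libraries, equal to 0.0556 CPM, Klk13 was at least 77.2-fold higher in mutant corneas, and at least 19.9-fold higher without M3. It was past the threshold with all libraries, but not without M3, W2 or W3, nor in limma-voom with sample quality weights. Floors cover counting error only.

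The other kallikreins were at or near 0. Klk12 had 6 read pairs in M2 and 5 in M3, with none in M1 or in wildtype, so the groups overlapped at 0. Klk14, a trypsin-like kallikrein of the epidermis, had 1 read pair in M3 and 4 in W2. Klk7, the chymotrypsin-like kallikrein of the stratum corneum, had 1 read pair in M1 and 1 in M3. Klk6, a kallikrein of the nervous system and skin, had 1 read pair in M1. At this depth none of the 4 showed a difference that could be measured.

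The kallikreins outside the set were no more abundant. Of 18 such genes, 14 had no read pair in any library, among them Klk5, which starts the epidermal cascade. Their total was 7 read pairs in mutant and 9 in wildtype corneas, and none passed the low-count filter. Of the 26 protein-coding kallikreins of chromosome 7, 12 had any read pair and 4 were tested. The 4 starts lie within 85 kb, between Klk13 and Klk8, and this stretch also holds Klk12 and Klk9, which had 11 and 6 read pairs over all libraries.

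**Figure D2:**
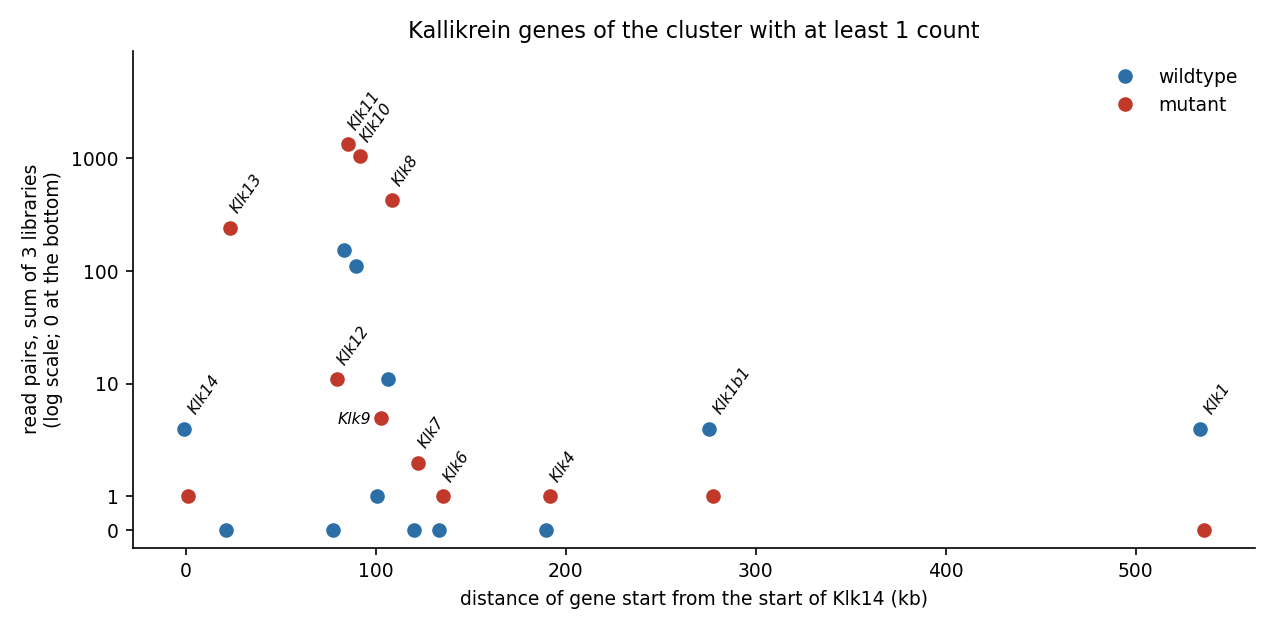
Summed read pairs of 3 mutant (red) and 3 wildtype (blue) libraries on a log axis, for the 12 kallikrein genes with at least 1 read pair, by the distance of each gene start from the start of Klk14 in kb. Klk13, Klk11, Klk10 and Klk8 hold 243, 1342, 1040 and 424 mutant read pairs, and all genes beyond Klk8 hold 5 or fewer.

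Genes beside the cluster were compared with it. Within 200 kb of its ends, 9 tested genes were not kallikreins. None was called by edgeR at an adjusted p of 0.05, beside 10.1% of all tested genes. At that share 9 genes are too few for the absence of calls to set them apart from other genes. Of the 9, 3 (Cd33, Zfp658 and Zfp719) had an unadjusted p under 0.05. DESeq2 called 1 of the 9, Cd33, and limma-voom with sample quality weights none. Their log2 fold changes ran from -0.85 for Syt3 to 3.01 for Cd33, a receptor of myeloid cells, with a median of 0.41. Ctu1, which adjoins Klk14, had a log2 fold change of -0.37 ± 0.33 (SE). No gene inside the cluster other than a kallikrein passed the low-count filter.

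Spink5 was far more abundant than any kallikrein. The gene lies apart from them, on chromosome 18 from 43963235 to 44022501 (ENSMUSG00000055561). It stood at 756, 837 and 796 CPM in M1, M2 and M3 and at 306, 222 and 176 CPM in W1, W2 and W3. The groups were well apart and the mutant libraries agreed within 1.11-fold. The means were 796 ± 40.4 CPM in mutant and 234 ± 65.9 CPM in wildtype corneas (SD, n = 3 each), a log2 fold change of 1.76 ± 0.20 (SE) or 3.40-fold. Over the 13 alternative analyses the log2 fold change was 1.57 to 2.0, past the threshold in each. As for Klk10 and Klk11, W1 was the highest and W3 the lowest wildtype library.

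The other Kazal-type inhibitor genes had almost no reads. Of 11 genes of the Spink family besides Spink5, 7 had no read pair, the rest held 49 read pairs in mutant and 46 in wildtype corneas together, and none passed the filter. Of the epidermal kallikreins named above as restrained by LEKTI, Klk5 had 0, Klk7 2 and Klk14 5 read pairs over all libraries. These genes need not be its only targets. Whether LEKTI acts on Klk8, Klk10, Klk11 or Klk13, the kallikreins that passed the filter, was not tested.

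Levels of different genes were set side by side per kilobase of union exon. In mutant corneas Spink5 stood at 166 ± 8.43 CPM per kb, Klk11 at 16.3 ± 4.10, Klk10 at 13.4 ± 3.89, Klk8 at 4.78 ± 0.977 and Klk13 at 1.66 ± 2.04 (SD, n = 3). This order, from Spink5 down to Klk13, was the same within each mutant library. Across libraries the ranges of Klk11 and Klk10 overlapped, as did those of Klk8 and Klk13. In wildtype corneas the order by mean was Spink5 at 49.0 ± 13.8, Klk11 at 1.98 ± 1.74, Klk10 at 1.51 ± 1.68 and Klk8 at 0.131 ± 0.0869 CPM per kb, where the range of Klk10 overlapped those of Klk11 and Klk8, and Klk11 lay above Klk8 in each library.

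Klk10 and Klk11 together made up 82.8%, 89.3% and 71.7% of the summed kallikrein level per length in M1, M2 and M3. In W1, W2 and W3 their share was 98%, 92.4% and 74.0%. Klk8 took 9.04% to 16.4% of the mutant total, and Klk13 took 1.69%, 1.06% and 11.2% of it. The wildtype shares rest on few reads, and the 26.0% of Klk8 in W3 on 6 read pairs.

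Summed over the 8 members, kallikreins reached 29.9, 43.4 and 35.7 CPM per kb in M1, M2 and M3 and 7.40, 2.83 and 0.802 in W1, W2 and W3. For every 100 units of Spink5 per length there were 18.9, 24.8 and 21.5 units of kallikrein in the mutant libraries and 11.6, 6.12 and 2.18 in the wildtype libraries. The means were 21.8 ± 2.97 and 6.63 ± 4.72 (SD, n = 3 each), without overlap between the groups. Both protease and inhibitor RNA were thus higher in mutant corneas, the kallikrein sum by the larger factor. Without W1 the wildtype mean of the ratio was 4.15.

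**Figure D3:**
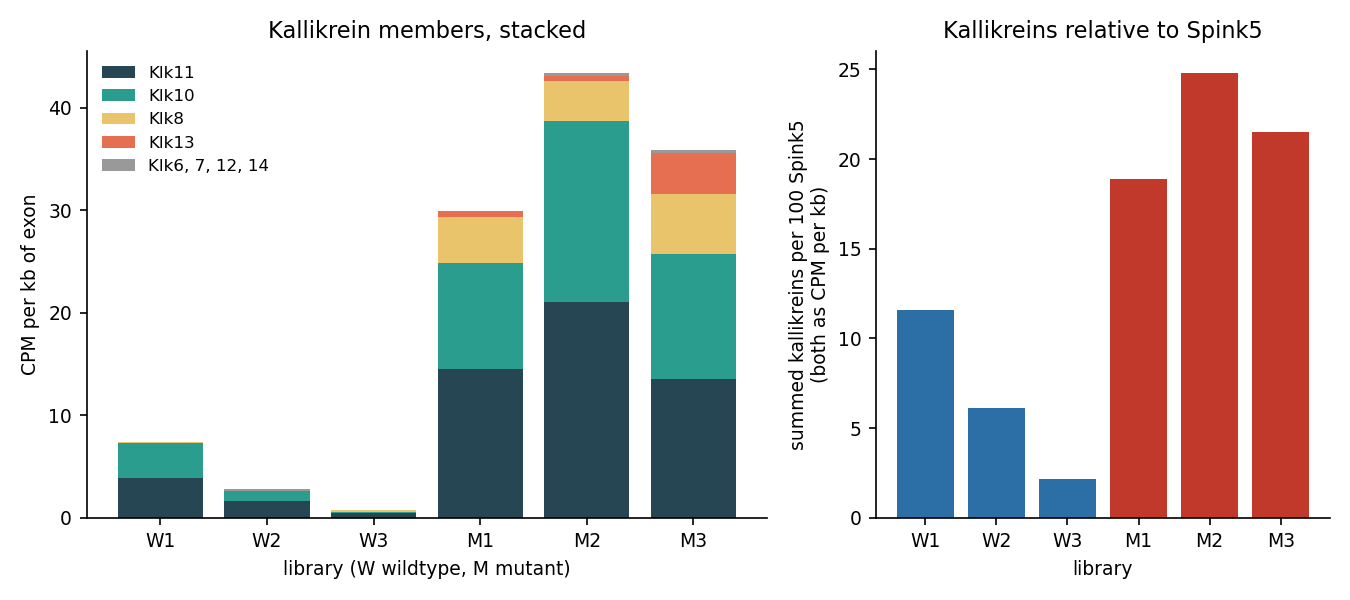
Left, levels of the member kallikreins in CPM per kb of exon, stacked by gene, for each library. Right, the summed kallikreins per 100 units of Spink5, both per length, in blue for wildtype and red for mutant: 2.18 to 11.6 in wildtype and 18.9 to 24.8 in mutant libraries.

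Other proteases and inhibitors of epithelial surfaces were read from the same fit. Of 16 listed serine proteases that are anchored in the membrane or can activate other proteases, 15 were tested, 3 rose and 2 fell, with a median log2 fold change of 0.23. Of all tested genes 5.59% were called higher and 4.46% lower. These shares stand beside the counts of this list and of each list that follows. Prss27, a membrane-anchored protease of stratified epithelia, rose by 1.19 ± 0.15 on the log2 scale (± SE; adjusted p = 0.0031, edgeR), from 83.6 ± 11.7 to 190 ± 26.2 CPM (SD, n = 3). Tmprss11f rose by 1.54 ± 0.21 and Tmprss4 by 0.99 ± 0.18, both of the same class of transmembrane proteases. Against them Plau, the urokinase that turns plasminogen into plasmin, fell by 1.38 ± 0.29, and Tmprss11a by 0.53 ± 0.14, from 720 ± 64.2 to 499 ± 57.1 CPM (SD, n = 3). Matriptase (St14) and its partner prostasin (Prss8), which start epidermal protease cascades, stood at log2 fold changes of 0.23 ± 0.16 and -0.14 ± 0.15 and did not pass the test. Neither lower call was made without M1, M3, W2 or W3, that of Tmprss11a also not without M2 or without composition scaling, and Tmprss4 was not called without M2, M3 or W2. Exons of Tmprss4 overlap a gene on the opposite strand, so its counts are uncertain.

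Of 10 further protease inhibitors 5 were tested and 1 rose, with a median log2 fold change of -0.057. A2m, the alpha-2-macroglobulin that traps proteases of all classes, rose by 2.29 ± 0.37 (± SE; adjusted p = 0.0078, edgeR). Slpi, a secreted inhibitor of leukocyte elastase, had a log2 fold change of 1.75 ± 0.47 and an adjusted p of 0.055 in that test, and lay past the threshold in 3 of 13 alternative analyses (0.012 to 0.18 over all of them). Spint1 and Spint2, which inhibit matriptase, had log2 fold changes of -0.14 ± 0.12 and -0.14 ± 0.11 and were not called.

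Of 15 genes for proteins that kallikreins are known to cut or to signal through, 11 were tested, 2 rose and 2 fell, with a median log2 fold change of 0.29. Ephb2, an ephrin receptor cut by neuropsin in brain, rose by 1.89 ± 0.14 (± SE; adjusted p = 0.00057, edgeR) and stood at 55, 53 and 53.7 CPM in M1, M2 and M3 against 15.9, 13.2 and 14.4 CPM in W1, W2 and W3. The gelatinase gene Mmp2 rose by 2.75 ± 0.48. The desmosomal cadherins Dsg1a and Dsg1b fell by 2.04 ± 0.27 and 1.26 ± 0.17, and as close relatives they may share reads. Corneodesmosin (Cdsn), the epidermal target of Klk7, had 4 read pairs in mutant and 2 in wildtype corneas, and filaggrin (Flg) 1 and 0. F2rl1, the receptor PAR2 that several kallikreins activate, stood at 42.6 ± 1.55 CPM in mutant and 34.8 ± 4.61 CPM in wildtype corneas (SD, n = 3) and was not called.

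Among 7 genes commonly induced through PAR2, 4 were tested and Icam1 rose, by 3.34 ± 0.48 (± SE; adjusted p = 0.0046, edgeR), with exons that overlap a gene on the opposite strand. Cxcl1, Tslp and Tnf had log2 fold changes of 3.94 ± 1.26, 1.23 ± 0.66 and 0.39 ± 0.67 and were not called by edgeR. Cxcl1 was called in 2 of 12 alternative analyses, by DESeq2 and without the low-count filter (adjusted p 2.5e-07 to 0.48 over all 12), its groups overlapped, and its value was 1.79 without M2. The median of the 4 was 2.3.

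**Figure D4:**
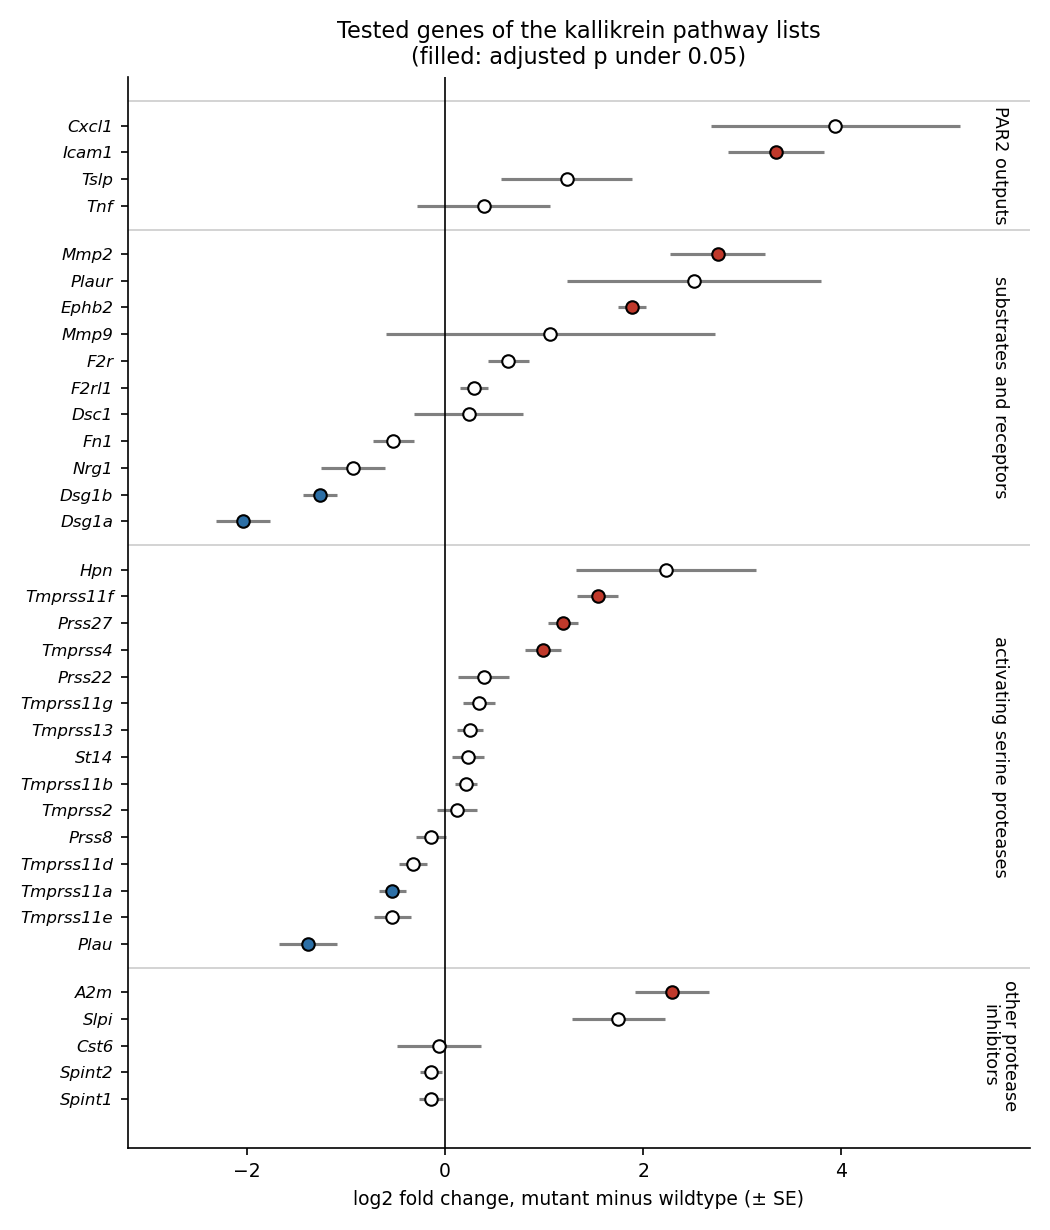
Log2 fold change, mutant minus wildtype, with its standard error for each tested gene of 4 lists. Filled symbols passed an adjusted p of 0.05, red for higher and blue for lower: 1 of 5 further inhibitors, 5 of 15 serine proteases, 4 of 11 substrates and receptors and 1 of 4 genes induced through PAR2. Of all tested genes 10.1% passed.

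Markers of other tissues that a dissected cornea could carry were read beside the kallikreins and Spink5. Of 6 epidermal genes 5 had any read pair, and their summed level was 5.18 to 9.55 CPM in mutant and 6.41 to 11.4 CPM in wildtype libraries. Lor, the loricrin of cornified cells, had 2 read pairs in all and Flg2 none, so these 2 genes were at or near 0 in both genotypes. Krt1 and Krt10, the tested genes of the list, had reads in every library, at 2.12 to 6.3 and 1.98 to 5.11 CPM. Neither was called. Of 8 conjunctival and goblet genes all had reads, and their summed level was 16250 to 17540 CPM in mutant and 5122 to 8592 CPM in wildtype libraries. Most of this sum was Muc4, which was not called. It stood at 10150 ± 257 CPM in mutant and 5832 ± 2081 CPM in wildtype corneas (SD, n = 3 each). Of the 6 tested genes 5 were called higher, beside 5.59% of all tested genes. Krt13 and Krt4 had log2 fold changes of 4.35 ± 0.19 and 4.17 ± 0.52 (SE). Muc5ac ran from 9.86 to 288 CPM over the mutant libraries, and Spdef had 19 read pairs in each genotype. Of 7 genes of lacrimal and salivary acini 4 were at 0 (Prol1, Smr3a, Scgb2b24 and Dcpp1). The summed level of this list, 2586 to 3484 CPM in mutant and 4823 to 6340 CPM in wildtype libraries, was nearly all Aqp5, which corneal epithelium also expresses. Bhlha15, a transcription factor of secretory cells and the other tested gene of the list, stood the other way, at 2.51, 1.33 and 0.72 CPM in M1, M2 and M3 against 0.397 CPM in W2 and 0 in W1 and W3, and was not called. The 6 stromal genes summed to 880 to 3518 CPM in mutant against 272 to 404 CPM in wildtype libraries, and the 6 leukocyte genes to 170 to 204 against 33.4 to 49.2 CPM. The summed conjunctival, stromal and leukocyte markers were thus higher in mutant corneas, as the kallikreins were. Their part in the result was not tested. All 6 leukocyte genes and 3 of 6 stromal genes were called higher, beside 5.59% of all tested genes. Of the Itgam exons 68.7% overlap another gene on the same strand, so its counts are uncertain. Library order within a genotype differed from gene to gene. Col1a1 stood at 2704, 1013 and 383 CPM in M1, M2 and M3. W1, the highest wildtype library of Klk10 and Klk11, was the lowest wildtype library for some tested markers and the highest for others. It was lowest for Krt4, Krt13, Krt19, Krt7, Dcn, Col5a1, Ptgds, Cd74, Laptm5 and Tyrobp. It was highest for Muc4, Muc5ac, Kera, Col1a1, Itgam and Csf3r.

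The genes whose pattern over the 6 libraries was most like that of the 4 tested kallikreins were found by the root mean square difference between centred log2 CPM profiles, among 10164 genes with at least 5 CPM in the higher genotype. The 5 nearest were Steap4, a metalloreductase, at 0.27, Cyp7b1, an oxysterol hydroxylase, at 0.30, lactoferrin (Ltf) at 0.34, the peptidylarginine deiminase Padi1 at 0.35 and the iron-binding Meltf at 0.36, all in log2 units. They were chosen for this likeness, so their differences are a description. Steap4 stood at 114, 211 and 280 CPM in M1, M2 and M3 and at 14, 8.35 and 6.04 CPM in W1, W2 and W3. Cyp7b1 stood at 5.26, 8.82 and 8.37 CPM in M1, M2 and M3 and at 0.738, 0.454 and 0.107 CPM in W1, W2 and W3. In all 5 genes W1 was the highest and W3 the lowest wildtype library, the order also seen in Klk10, Klk11 and Spink5. Klk10 and Klk11 are part of the profile used for the choice, so this order follows from it in part. The kallikreins lay farther from their own mean profile than these genes did. Klk11 was at 0.65, Klk8 at 0.75, Klk10 at 0.76 and Klk13 at 0.90, and Spink5 at 1.19. That too follows in part from taking the 5 smallest of 10164 distances. Exons of Padi1 overlap a gene on the opposite strand.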

How the data were processed

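RNA-seq counts of 6 mouse cornea libraries were used. Per the labels' protocols, library preparation used a stranded kit meant for very low amounts of total RNA. The submitters' processing notes name HISAT2, HTSeq, Trim Galore, SAMtools and edgeR, and the build GRCm38. Versions and the strand setting are not stated in what was used here. Values as deposited by the authors are raw counts, 1 per read pair, for Ensembl genes, without normalization. The HTSeq summary lines entered neither library sizes nor tests; 30.1% of all lines' total was not aligned and 16.3% in no feature.

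Symbols came from GENCODE M21, and 55240 of 55421 IDs matched. Genotypes were compared with edgeR 4.0.16 in R 4.3.3 (filterByExpr with minimum count 10 and total 15, TMM scaling, quasi-likelihood test, Benjamini-Hochberg adjustment over 15209 genes, threshold 0.05), with genotype as the only term. Chi-square per degree of freedom between libraries of 1 genotype was 17.8 to 53.9, so no library repeats another within sampling noise; that they are biological replicates is the series' own statement. Log2 CPM used a prior count of 2. Members and gene lists were chosen with earlier results of these data known. From each pathway list up to 4 tested genes with the smallest p were named, besides any called gene that moved against the rest of its list. Some tested genes within 200 kb of the cluster and the 5 genes of most similar profile were also named. The named marker genes, and St14, Prss8, F2rl1, Cdsn, Flg and the named genes at or near 0, fall outside these rules. They were picked after their values were seen. Alternatives were DESeq2 1.42.0, limma-voom (limma 3.58.1) with quality weights, RLE scaling, no scaling, 2 other filters, removal of mitochondrial and structural RNA genes, leaving out each library, and other gene lengths. The fit was first tested on simulated counts.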

Additional observations from a re-analysis of the deposited data

How the results depend on the processing

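Of 5 kallikrein and Spink5 genes called higher, 5 were called under each of 6 alternatives with all libraries and 4 by limma-voom with quality weights, and none was called lower in any of the 13 alternatives. Leaving out 1 library gave 2 to 5. Klk8 and Spink5 were called in all 13 and Klk10, Klk11 and Klk13 in 9 each; a fit without 1 library has fewer samples. Over all genes, 850 higher and 679 lower calls became 1325 and 1033 with DESeq2 and 1588 and 1137 without a low-count filter, and 340 to 1227 and 271 to 847 with 1 library left out. In the pathway lists together, 7 higher and 4 lower calls became 12 and 7 without a filter and 6 to 9 and 2 to 4 with 1 library left out. Kallikreins per 100 units of Spink5 were 24.9 in mutant corneas by coding length, and 20.2 to 23.2 with 1 mutant and 4.15 to 8.85 with 1 wildtype library left out. For 27 genes, 350 values were compared: the tested members, the pathway-list genes named by the rule and the 5 genes of most similar profile. Of these values 28 lost and 5 gained their call and no called direction changed. No paired analysis was possible because the labels share no replicate number between genotypes; the numbers 1 to 3 used here only name libraries. Klk6, Klk7, Klk12 and Klk14 are limited by depth.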
